A study of Rattus norvegicus with 9 samples.

Results

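The 10 core circadian clock genes Arntl (now also named Bmal1), Clock, Npas2, Per1, Per2, Per3, Cry1, Cry2, Nr1d1 and Nr1d2 were followed in rat liver after total-body irradiation (TBI). They were found on the array by matching each probe's RefSeq accession to these symbols or their synonyms, which gave 12 of 41012 probes, or 10 of 13438 named genes. All 10 genes passed the background filter and were tested, among 25346 probes in all. Each of 9 livers, all from male Wistar rats, was measured on its own Agilent rat expression array with a single dye. The control group was 3 rats that were not irradiated. The TBI group was 3 rats exposed to 6.5 Gy of cobalt gamma rays. The HSC + TBI group was 3 rats given HSC (Hong Shan Capsule), a mixture of medicinal herbs, by stomach tube on 3 days in a row and then the same 6.5 Gy. The study's methods give the HSC dose as 10 g/kg/day and the sample labels give 30 mg/kg/day. All livers were taken 24 h after exposure, at an hour of the day that is not given in the sources used here. Whether that hour was the same in all groups is not given either, so a difference in hour cannot be told apart from group. No group given HSC without radiation was analysed here.

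The circadian clock of mammalian cells is a feedback loop of transcription. ARNTL pairs with CLOCK or its paralog NPAS2 and switches on the Per, Cry and Nr1d genes, PER and CRY proteins return to the nucleus and shut the pair off, and NR1D1 and NR1D2 (REV-ERB alpha and beta) repress Arntl. In liver the loop drives daily rhythms of metabolism and detoxification, and activator and repressor transcripts peak at different times of the day.

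Promoters are shown for the 4 core clock genes whose windows held a match to a motif named below. A window of 300 bases, from 250 before to 50 after the RefSeq start site, was at hand in assembly GRCr8 for 9 of the 10 genes, in 11 windows. Both strands were searched for the E-box CACGTG, which the ARNTL pair binds, its variant CACGTT, the D-box TTATGTAA or TTACGTAA, the core TAGGTCA of the REV-ERB response element and the cAMP response element TGACGTCA. The 4 windows below are printed 5′ to 3′ on the gene's strand, and capitals mark the matches. The Arntl window (chr1:176766078-176766377, plus strand) held the REV-ERB core, at 16 to 10 bases before the start. The Per2 window (chr9:99496944-99497243, minus strand) held a D-box and an E-box variant. The Cry2 window (chr3:98860388-98860687, minus strand) held the E-box variant on its opposite strand, and the Nr1d1 window of the downstream start (chr10:84229405-84229704, minus strand) held an E-box.
Arntl: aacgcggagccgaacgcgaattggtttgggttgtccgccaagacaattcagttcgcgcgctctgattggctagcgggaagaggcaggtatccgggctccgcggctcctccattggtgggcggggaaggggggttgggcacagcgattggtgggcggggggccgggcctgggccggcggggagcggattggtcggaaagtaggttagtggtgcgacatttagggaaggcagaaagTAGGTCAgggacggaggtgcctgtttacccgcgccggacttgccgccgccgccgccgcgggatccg
Per2: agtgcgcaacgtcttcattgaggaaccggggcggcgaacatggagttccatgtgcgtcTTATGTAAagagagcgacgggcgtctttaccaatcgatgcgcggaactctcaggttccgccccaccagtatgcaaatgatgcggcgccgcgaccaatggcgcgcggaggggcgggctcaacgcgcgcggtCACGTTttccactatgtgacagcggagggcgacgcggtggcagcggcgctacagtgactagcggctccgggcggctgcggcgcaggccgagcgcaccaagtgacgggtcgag
Cry2: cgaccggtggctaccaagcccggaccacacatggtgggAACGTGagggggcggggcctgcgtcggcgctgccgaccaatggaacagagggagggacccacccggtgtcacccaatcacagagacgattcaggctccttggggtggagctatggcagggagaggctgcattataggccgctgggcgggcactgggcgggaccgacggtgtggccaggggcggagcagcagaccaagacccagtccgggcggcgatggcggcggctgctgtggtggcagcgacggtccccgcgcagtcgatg
Nr1d1: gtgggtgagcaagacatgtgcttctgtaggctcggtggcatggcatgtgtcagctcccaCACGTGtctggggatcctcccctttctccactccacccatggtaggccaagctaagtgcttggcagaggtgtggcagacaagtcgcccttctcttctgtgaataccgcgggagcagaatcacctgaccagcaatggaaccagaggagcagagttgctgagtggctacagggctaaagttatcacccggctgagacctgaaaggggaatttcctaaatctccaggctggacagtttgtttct

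Among all 33469 windows of this length, 2.63% held the REV-ERB core, 1.01% a D-box, 6.42% an E-box, 4.83% the variant and 1.83% the cAMP response element. Of the 9 clock genes with a window, 1 held the REV-ERB core, 1 a D-box, 1 an E-box, 3 the variant and none the cAMP response element. The third gene with the variant was Nr1d1, in its upstream window. Windows of Clock, Npas2, Per1, Per3 and Nr1d2 held no match, and Cry1 had no window. A match is a run of letters and not a measured binding site.

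Signals are given as quantile-normalized log2 intensities, and differences as log2 differences of group means from 1 limma fit of the 3 groups. Calls needed both a fold change of at least 1.5 and a p under 0.05 after Benjamini-Hochberg adjustment over all tested probes. Signals of different genes come from different probes and cannot be set against each other. In the TBI group 63.6% to 69.5% of probes were above background, against 56.6% to 59.3% in controls and 58.7% to 60.4% in the HSC + TBI group, and array TBI 3 was the brightest. Controls lay on 1 slide, TBI rats on another and HSC + TBI rats on 2 more, so slide and group cannot be told apart. All 8 hepatocyte markers were above background on all 9 arrays. The log2 of their summed linear signals, which mostly follows the brightest of them, was 19.7 to 19.8 in controls, 19.5 to 19.8 after TBI and 19.7 to 19.8 after HSC + TBI. One of them, Tat (tyrosine aminotransferase, named after its values were seen), was 2.89-fold higher after TBI than in controls (adjusted p = 0.0287) and 2.66-fold higher after HSC + TBI, the latter not called (adjusted p = 0.062). No probe of the other hepatocyte markers was called between TBI and control. Their log2 differences went both ways, from -0.53 to 0.52 (limma adjusted p from 0.095 to 0.968). Livers are mixed tissue, and in bulk RNA fewer cells of a type and less RNA per cell cannot be told apart.

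The activator arm was higher after TBI, and Arntl moved the most. Arntl (NCBI gene 29657), the partner shared by CLOCK and NPAS2, had signals of 4.85, 5.15 and 5.47 in the controls, 8.31, 7.46 and 8.55 in the TBI rats and 6.64, 6.49 and 6.84 in the HSC + TBI rats. The 3 groups did not overlap, with the HSC + TBI rats between the others. Arntl was 7.73-fold higher after TBI than in controls (log2 difference 2.95 ± 0.28 SE, 95% interval 2.31 to 3.59, adjusted p = 0.00115). After HSC + TBI it was 2.83-fold higher than in controls (log2 difference 1.502 ± 0.28 SE, interval 0.86 to 2.15, adjusted p = 0.0287). The HSC + TBI rats were lower than the TBI rats by a log2 difference of -1.45 (interval -2.09 to -0.80), which was not called (adjusted p = 0.0661). Between TBI and control the gene was called with any 1 rat left out, at 2.73 to 3.27. The call between HSC + TBI and control was lost without any 1 control or HSC + TBI rat (adjusted p up to 0.101), and without TBI 2 the lower signal after HSC + TBI than after TBI was called (adjusted p = 0.0415). Normexp background correction, run with an offset of 50 added to every signal before the log2, gave smaller Arntl differences from control. They were 1.42 after TBI and 0.55 after HSC + TBI. The part of this offset in the smaller differences was not tested.

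Npas2 (NCBI gene 316351), which can stand in for CLOCK, had signals of 6.32, 5.35 and 6.46 in controls, 7.66, 7.02 and 7.48 after TBI and 6.46, 6.01 and 5.94 after HSC + TBI. The TBI rats were above all others, while controls and HSC + TBI rats overlapped. Npas2 was 2.54-fold higher after TBI than in controls (log2 difference 1.34 ± 0.31 SE, adjusted p = 0.0343). HSC + TBI differed from control by 0.09 (interval -0.61 to 0.79, adjusted p = 0.907) and from TBI by -1.25 (interval -1.96 to -0.55, adjusted p = 0.112), and neither was called. The call after TBI held in 3 of 9 fits with 1 rat left out: it was lost without control 1, control 2, TBI 1, TBI 3, HSC + TBI 2 or HSC + TBI 3, with the difference between 0.99 and 1.55 over all 9. A second, dimmer Npas2 probe, above background on 5 of 9 arrays, gave 0.54 for TBI against control (adjusted p = 0.377).

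Clock (NCBI gene 60447), the usual partner of ARNTL, was dim, with signals of 3.86, 4.32 and 4.20 in controls, 5.07, 4.71 and 4.63 after TBI and 4.62, 4.86 and 4.88 after HSC + TBI. All 6 irradiated rats were above the 3 controls, and both irradiated groups overlapped. Clock was 1.60-fold higher after TBI than in controls (log2 difference 0.67 ± 0.17 SE, adjusted p = 0.0471), a call that held only without TBI 3 among the 9 fits with 1 rat left out (adjusted p up to 0.122). HSC + TBI was 0.66 ± 0.17 SE above control (adjusted p = 0.0783), and differed from TBI by -0.02 (interval -0.40 to 0.37, adjusted p = 0.974). The probe was above background on 8 of 9 arrays, 2 of 3 in the controls. It therefore passed the filter only through the irradiated groups, where it was higher. Clock was not called after TBI without a filter on dim probes (limma adjusted p = 0.0635) or with a 75th percentile shift (adjusted p = 0.0511).

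**Figure D1:**
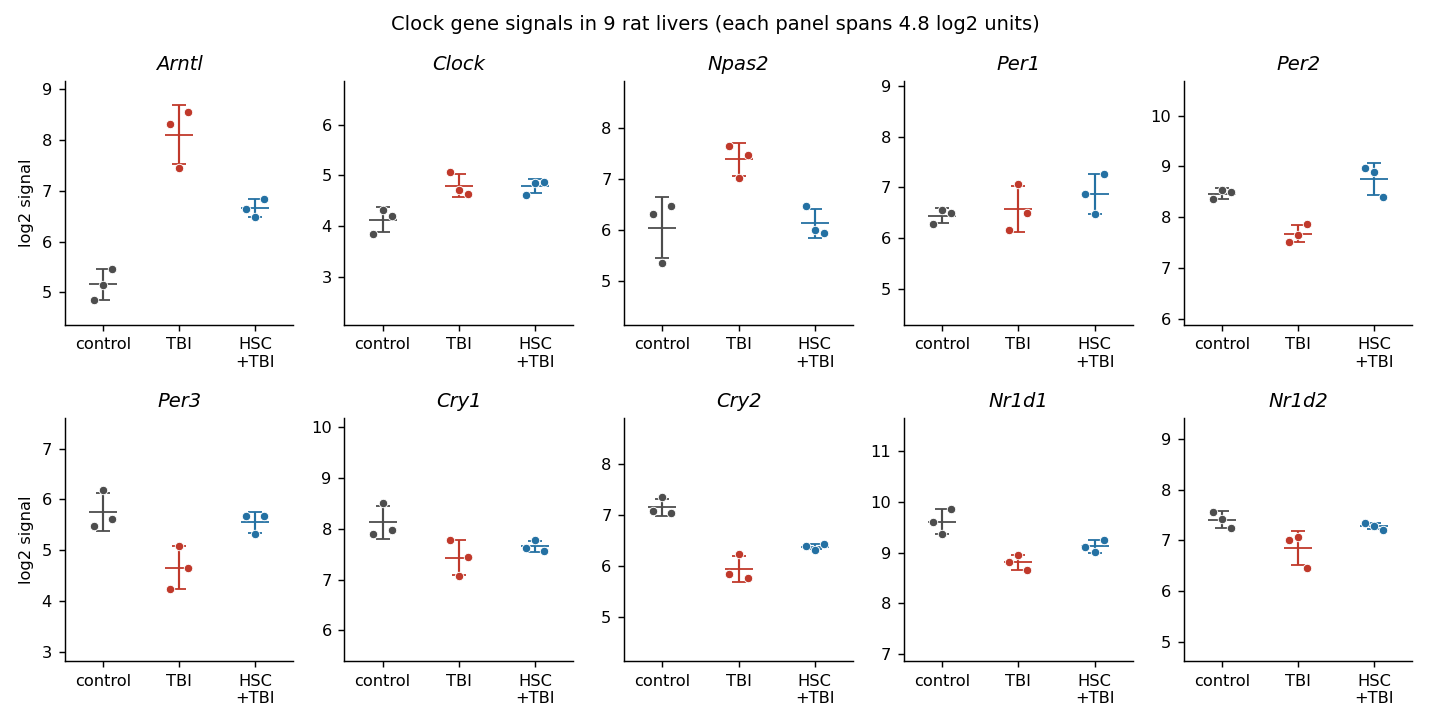
Quantile-normalized log2 signal (vertical axis) of the 10 core clock genes in the control, TBI and HSC + TBI groups; points are rats, the horizontal mark is the group mean and the bars are 1 SD (n = 3). Arntl rises from 4.85 to 5.47 in controls to 7.46 to 8.55 after TBI, with the HSC + TBI rats at 6.49 to 6.84.

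Of the PER and CRY genes, whose proteins close the loop by inhibiting the ARNTL pair, Cry2, Per3 and Per2 were called lower after TBI. Cry1 and Per1 were not called. Cry2 (NCBI gene 170917), a cryptochrome repressor, had signals of 7.09, 7.35 and 7.04 in controls, 5.83, 6.23 and 5.76 after TBI and 6.38, 6.32 and 6.42 after HSC + TBI. The groups did not overlap, and HSC + TBI again lay between the others. Cry2 was 2.33-fold lower after TBI than in controls (log2 difference -1.22 ± 0.15 SE, interval -1.57 to -0.87, adjusted p = 0.00363). After HSC + TBI it was 1.72-fold lower than in controls (log2 difference -0.78 ± 0.15 SE, adjusted p = 0.0321). The HSC + TBI rats were above the TBI rats by 0.43 (interval 0.09 to 0.78, adjusted p = 0.215), not called. The call after TBI held with any 1 rat left out (-1.36 to -1.12), whereas that after HSC + TBI was lost without any 1 control or HSC + TBI rat (adjusted p up to 0.116). With normexp correction the difference after TBI was -0.61 and still called. That after HSC + TBI was -0.42 (limma adjusted p = 0.0207) and missed only the fold limit.

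Per2 (NCBI gene 63840), a period repressor, had signals of 8.35, 8.54 and 8.50 in controls, 7.52, 7.64 and 7.86 after TBI and 8.97, 8.88 and 8.39 after HSC + TBI. The TBI rats were below all others, and the HSC + TBI rats overlapped the controls. Per2 was 1.73-fold lower after TBI than in controls (log2 difference -0.79 ± 0.17 SE, adjusted p = 0.0285). It was 2.11-fold higher after HSC + TBI than after TBI (log2 difference 1.08 ± 0.17 SE, interval 0.68 to 1.47, adjusted p = 0.0412), the only clock gene called between these groups. HSC + TBI differed from control by 0.29 (interval -0.11 to 0.68, adjusted p = 0.403). The call between HSC + TBI and TBI was lost without control 1, 2 or 3, TBI 2, HSC + TBI 1 or HSC + TBI 2 (adjusted p up to 0.138, difference 0.97 to 1.26), and the call between TBI and control was lost without control 1, 2 or 3, TBI 1 or TBI 2 (adjusted p up to 0.092).

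Per3 (NCBI gene 78962), the third period gene, had signals of 5.48, 6.18 and 5.61 in controls, 4.24, 5.08 and 4.65 after TBI and 5.67, 5.31 and 5.67 after HSC + TBI. The TBI rats were again below all others. Per3 was 2.15-fold lower after TBI than in controls (log2 difference -1.10 ± 0.25 SE, adjusted p = 0.034). It differed from control by -0.21 after HSC + TBI (interval -0.78 to 0.37, adjusted p = 0.705), and HSC + TBI was 0.90 above TBI (interval 0.32 to 1.47, adjusted p = 0.148). The call held only without TBI 2 or HSC + TBI 2 among the 9 fits with 1 rat left out (adjusted p up to 0.091). A second Per3 probe, dimmer but above background on all 9 arrays, gave -0.62 after TBI (adjusted p = 0.124).

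Cry1 (NCBI gene 299691), the other cryptochrome, had signals of 7.90, 8.50 and 7.97 in controls, 7.78, 7.08 and 7.44 after TBI and 7.61, 7.78 and 7.56 after HSC + TBI. Both irradiated groups lay below the controls without overlap and overlapped each other. The Cry1 differences were -0.69 for TBI against control (interval -1.18 to -0.20, adjusted p = 0.0855), -0.47 for HSC + TBI against control (adjusted p = 0.27) and 0.22 for HSC + TBI against TBI (adjusted p = 0.648), none of them called. Without TBI 1 the first was called (adjusted p = 0.0499). Per1 (NCBI gene 287422), the period gene that also answers to stress hormones and cAMP, had signals of 6.29, 6.56 and 6.49 in controls, 6.17, 7.07 and 6.51 after TBI and 6.87, 6.47 and 7.26 after HSC + TBI. All 3 groups overlapped. The Per1 difference was 0.13 after TBI (interval -0.46 to 0.73, adjusted p = 0.781), and 0.42 after HSC + TBI (interval -0.17 to 1.01, adjusted p = 0.42).

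Of the REV-ERB genes, Nr1d1 was lower after TBI and Nr1d2 was not called. Nr1d1 (NCBI gene 252917), the nuclear receptor that represses Arntl, had signals of 9.60, 9.36 and 9.85 in controls, 8.81, 8.96 and 8.66 after TBI and 9.10, 9.01 and 9.25 after HSC + TBI. The 3 groups did not overlap, and the HSC + TBI rats lay between the others. Nr1d1 was 1.74-fold lower after TBI than in controls (log2 difference -0.80 ± 0.15 SE, interval -1.14 to -0.45, adjusted p = 0.0182). This call was lost without control 1 or control 3 (adjusted p up to 0.0597). The differences of HSC + TBI from control (-0.48, adjusted p = 0.13) and from TBI (0.31, interval -0.04 to 0.66, adjusted p = 0.362) were not called. Its paralog Nr1d2 (NCBI gene 259241) had signals of 7.56, 7.42 and 7.24 in controls, 7.003, 7.07 and 6.46 after TBI and 7.33, 7.29 and 7.21 after HSC + TBI. The TBI rats were below all others, and the HSC + TBI rats overlapped the controls. The Nr1d2 differences were -0.56 for TBI against control (adjusted p = 0.0861), -0.13 for HSC + TBI against control (adjusted p = 0.74) and 0.43 for HSC + TBI against TBI (adjusted p = 0.268), none of them called.

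**Figure D2:**
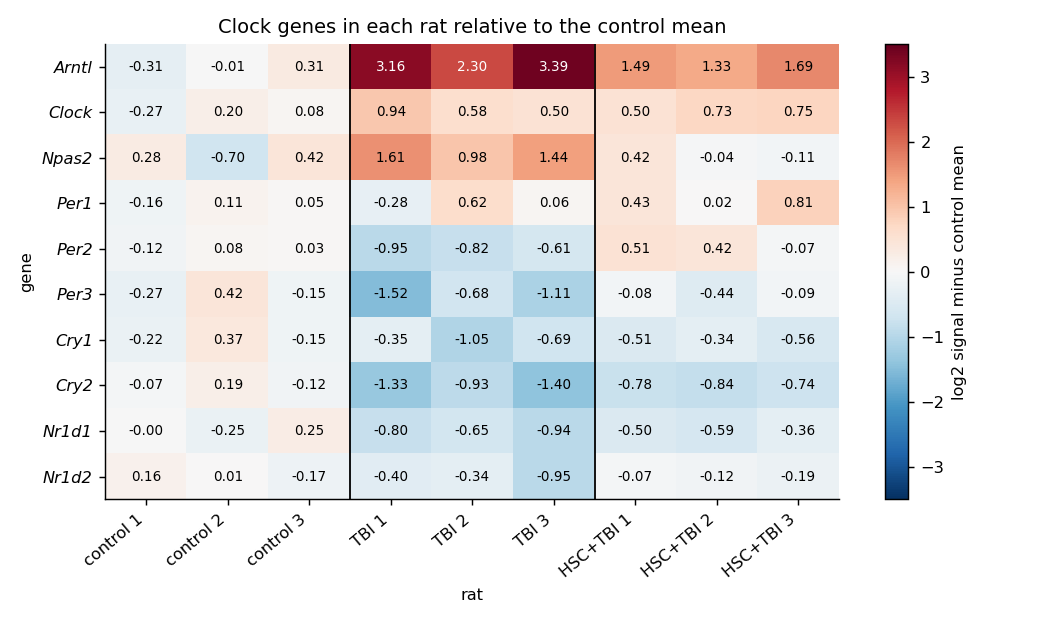
Log2 signal of each core clock gene (rows) in each rat (columns) minus the mean of the 3 controls; red is above and blue below that mean. Arntl is 2.30 to 3.39 above it in the TBI rats and 1.33 to 1.69 above it in the HSC + TBI rats, and Cry2 is below it in all 6 irradiated rats.

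Counted over the 10 genes, 7 were called between TBI and control, where 7.26% of all tested probes were called. Of these 3 were higher (Arntl, Clock and Npas2) and 4 lower (Per2, Per3, Cry2 and Nr1d1), against 3.55% and 3.71% of all probes. The Clock probe among them passed the filter only through the irradiated groups. In 9 genes the TBI rats did not overlap the controls, 3 higher and 6 lower, where 28.9% of all probes did not overlap, 13.3% higher and 15.6% lower. An unadjusted p under 0.05 was reached by 9 genes and by 25.5% of all probes. The median difference of the 10 genes was -0.63 and the median size of difference 0.79, against -0.01 and 0.24 over all tested probes. With normexp background correction 3 genes were called, Arntl, Npas2 (0.63) and Cry2. The differences of Clock (0.14), Per2 (-0.53), Per3 (-0.32) and Nr1d1 (-0.58) were not called. Of these, Per2 (limma adjusted p = 0.0263) and Nr1d1 (limma adjusted p = 0.0232) missed only the fold limit. Leaving out 1 rat at a time gave 2 to 5 called genes. The number was 2 without control 1, 3 without control 2 or control 3, 4 without TBI 1 or HSC + TBI 3, and 5 without TBI 2, TBI 3, HSC + TBI 1 or HSC + TBI 2. Arntl and Cry2 were called in all 9 of these fits.

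Between HSC + TBI and control, 2 of the 10 genes were called, Arntl higher and Cry2 lower, where 3.24% of all tested probes were called, 1.19% higher and 2.04% lower. In 5 genes these groups did not overlap, 2 higher and 3 lower, where 31.7% of all probes did not overlap, 18% higher and 13.7% lower. An unadjusted p under 0.05 was reached by 4 genes and by 19.6% of all probes. The median difference was -0.02 and the median size 0.45, against 0.05 and 0.21 over all probes. The number called was 0 without any 1 control or HSC + TBI rat. Between HSC + TBI and TBI, 1 gene was called (Per2), where 0.797% of all probes were called, 0.233% higher and 0.564% lower, and 6 had an unadjusted p under 0.05, where 16.3% of all probes did. In 7 genes these groups did not overlap, 5 higher and 2 lower after HSC, where 21.4% of all probes did not overlap, 12.7% higher and 8.74% lower. The number called was 0 without control 1, 2 or 3, HSC + TBI 1 or HSC + TBI 2, and 1 in the other 4 fits, where it was Arntl without TBI 2 and Per2 otherwise.

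The HSC + TBI rats lay between controls and TBI rats without overlap in 3 of the 10 genes, Arntl, Cry2 and Nr1d1, where 1.82% of all probes did. By limma's F-test over the 3 groups, 5 of the 10 genes differed, where 6.91% of all probes did. These were Arntl (adjusted p = 0.00269), Cry2 (adjusted p = 0.00764), Per2 (adjusted p = 0.0186), Nr1d1 (adjusted p = 0.0393) and Npas2 (adjusted p = 0.0495). The comparisons of both irradiated groups with control share the same 3 control rats, and both comparisons that involve TBI share the 3 TBI rats.

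**Figure D3:**
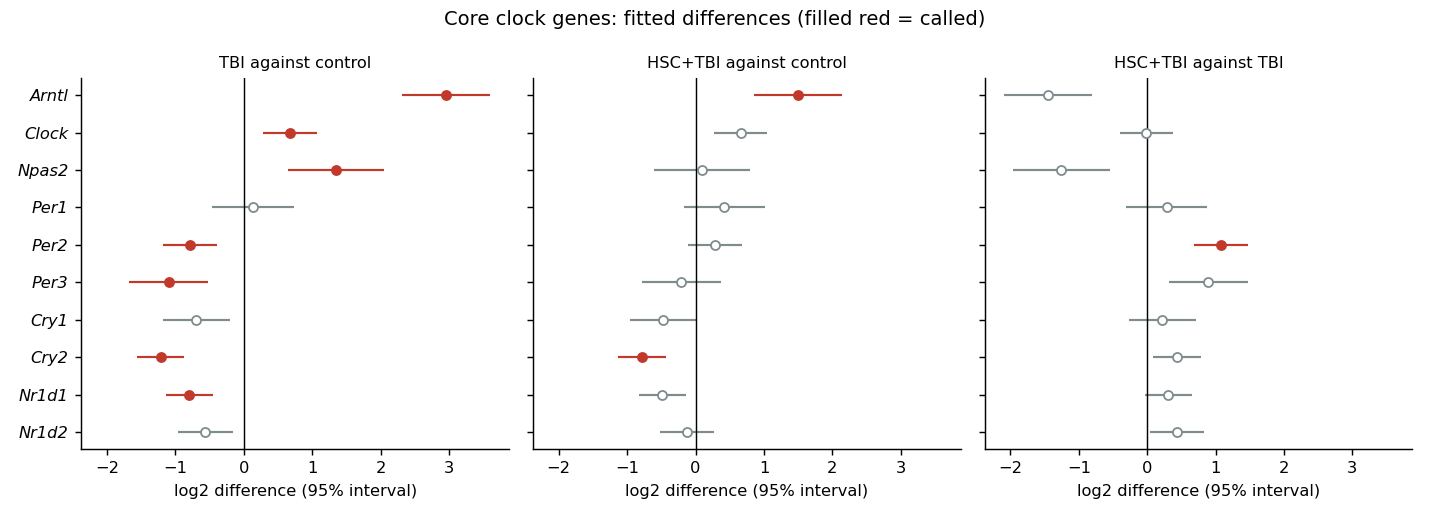
Fitted log2 difference (points) with its 95% interval (bars) for the 10 core clock genes in the 3 comparisons, each from 3 rats against 3; filled red points are called. In the first panel 7 points are filled, in the second Arntl and Cry2, and in the third Per2.

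The spread of the signals differed between the genes, and over all 9 rats it includes the differences between groups. Over all 9 rats Arntl spanned 3.70 log2 units, Npas2 2.31 and Per3 1.94, while Per1 and Nr1d2 spanned 1.09 and 1.10, against a median of 0.83 over all tested probes. Within groups the pooled SD ran from 0.18 for Cry2 and Nr1d1 to 0.43 for Npas2, against a median of 0.23 over all probes.

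The wider clock pathway was followed in a list of 25 other genes, of which 19 had a named probe and were tested. Between TBI and control 6 of the 19 were called, all of them lower, where 7.26% of all probes were called and 3.71% were called lower. An unadjusted p under 0.05 was reached by 9 of the 19 and by 25.5% of all probes. Dbp, a PAR bZIP activator that is a classical target of the ARNTL pair, had signals of 13.32, 13.32 and 13.33 in controls, 11.13, 11.87 and 11.22 after TBI and 12.51, 12.20 and 12.04 after HSC + TBI. Dbp was 3.77-fold lower after TBI than in controls (log2 difference -1.92 ± 0.21 SE, adjusted p = 0.00196). After HSC + TBI it was 2.10-fold lower than in controls (log2 difference -1.07 ± 0.21 SE, adjusted p = 0.0307), and it was 0.85 above TBI there (interval 0.38 to 1.31, adjusted p = 0.108), not called. Its relative Tef had signals of 9.12, 9.19 and 8.95 in controls, 8.22, 8.38 and 7.71 after TBI and 8.92, 8.77 and 8.82 after HSC + TBI. All TBI rats were below all others. Tef was 1.98-fold lower after TBI than in controls (adjusted p = 0.0138), and differed from control by -0.25 after HSC + TBI (adjusted p = 0.479). In 3 of the 19 genes, Dbp, Tef and Timeless, the 3 groups did not overlap and HSC + TBI lay between the others, where 1.82% of all probes did so.

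Timeless, which acts in replication fork protection and is a homolog of the fly clock gene, had signals of 8.33, 8.24 and 8.15 in controls, 7.40, 7.26 and 7.25 after TBI and 7.59, 7.64 and 7.58 after HSC + TBI. It was lower than control after TBI (log2 difference -0.93 ± 0.10 SE, adjusted p = 0.00222) and after HSC + TBI (-0.64 ± 0.10 SE, adjusted p = 0.0159). Of the output genes, Usp2, a rhythmic deubiquitinase, had 9.95, 10.29 and 10.18 in controls, 7.87, 8.95 and 8.82 after TBI and 10.12, 10.05 and 9.44 after HSC + TBI. Its TBI rats were below all others, 3.02-fold lower than control (adjusted p = 0.0167), and HSC + TBI against TBI was 1.33 (interval 0.64 to 2.01, adjusted p = 0.0935). Wee1, a kinase under clock control in liver that holds back entry into mitosis, was 2.28-fold lower after TBI than in controls (adjusted p = 0.00984). Its dimmer probes gave -0.96 (adjusted p = 0.0343, called) and -2.24 (adjusted p = 0.0755, not called). Por, the electron donor of cytochromes P450, was 1.81-fold lower (adjusted p = 0.0387). Nampt, which makes NAD and is a clock target, was not called with its brighter probe (-1.03 after TBI, adjusted p = 0.0985) but was with its dimmer one (-1.69, adjusted p = 0.00377).

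Cyp7a1, the rate-limiting enzyme of bile acid synthesis, had signals of 11.82, 10.88 and 11.22 in controls, 11.80, 12.40 and 11.54 after TBI and 12.42, 12.67 and 12.66 after HSC + TBI. The HSC + TBI rats were above all others. Cyp7a1 was 2.42-fold higher after HSC + TBI than in controls (log2 difference 1.27 ± 0.28 SE, adjusted p = 0.0451). With Dbp and Timeless it made 3 of 19 genes called in this comparison, 1 higher and 2 lower, where 3.24% of all probes were called, 1.19% higher and 2.04% lower. Between HSC + TBI and TBI limma called 0 of the 19, where 0.797% of all probes were called, with 8 at an unadjusted p under 0.05, where 16.3% of all probes were. None of the 5 tested kinases and ubiquitin ligases that tune the loop after transcription was called in any comparison. The median difference of the 19 genes after TBI was -0.25, and the median size 0.48.

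**Figure D4:**
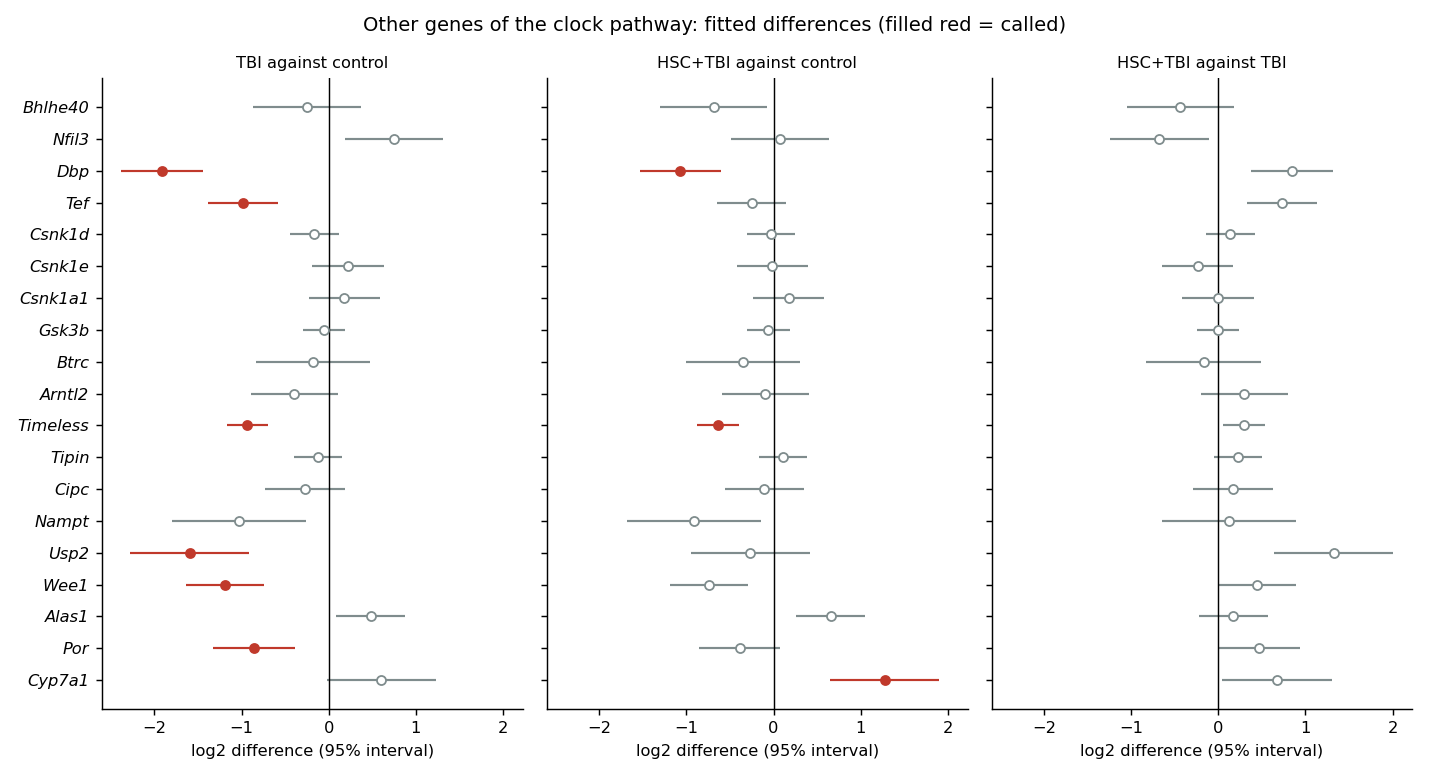
Fitted log2 difference (points) with its 95% interval (bars) for the 19 tested genes of the wider clock pathway in the 3 comparisons, each from 3 rats against 3; filled red points are called. Dbp, Tef, Timeless, Usp2, Wee1 and Por are called lower after TBI, and Cyp7a1 is called higher after HSC + TBI.

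The genes most like Arntl in their signals, by Pearson correlation over the 9 arrays among 8532 genes above background on all arrays, were Kctd10 (r = 0.96), Lrp1 (r = 0.96), Chka (r = 0.95), Sphk2 (r = 0.95) and C4bpa (r = 0.95). Chka, choline kinase alpha, ran from 5.92 to 6.26 in controls and from 7.43 to 8.15 in TBI rats, while Kctd10 moved only from 9.10 to 9.37 over all rats. Those most like Nr1d1 were Vkorc1 (r = 0.98), Pard6a (r = 0.97), Zfp691 (r = 0.96), Gpr146 (r = 0.96) and Fkbp8 (r = 0.96). These arrays share the 3 groups and 4 slides, so any gene that differs between groups in the same order has a high r, and the values are descriptions.

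Summed markers of several other cell types differed between groups, with the widest gap for lymphocytes. The log2 of the summed linear signals is given for each type. It mostly follows the brightest markers of a list and can hide the others. For 4 lymphocyte markers on the array it was 7.67 to 7.95 in controls, 3.97 to 4.77 after TBI and 4.58 to 5.33 after HSC + TBI, with Cd3e above background on no array. For macrophage markers, all 5 above background on every array, it was 15.5 to 16.01 in controls, 15.5 to 16.4 after TBI and 14.9 to 15.1 after HSC + TBI. For the 2 neutrophil markers on the array it was 7.97 to 9.24 in controls, 8.48 to 9.57 after TBI and 7.72 to 8.16 after HSC + TBI. The 4 stellate cell markers gave 13.4 to 13.7, 12.9 to 13.9 and 13.1 to 13.2 in the same order. Both probes of Lrat among them (named after its values were seen) were called lower after TBI (adjusted p = 0.0236 and 0.0191). No probe of the other stellate markers was called between TBI and control (limma adjusted p from 0.44 to 0.959). The 3 endothelial markers gave 13.3 to 13.7, 13.7 to 14.1 and 13.6 to 13.8, and the single erythroid marker on the array 8.02 to 9.57, 7.15 to 8.81 and 6.56 to 7.59. Their part in the clock gene values was not tested.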

How the data were processed

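The members and gene lists were chosen with earlier results of these data known. The authors scanned the arrays and deposited spot intensities from Agilent Feature Extraction 10.7.3.1 (per the file headers), and 1 log2 value per probe after quantile normalization. Here processed signals were set to at least 1, log2-transformed, stripped of control and outlier spots (84 to 115 of 43379 per array), averaged per probe after quantile normalization of the 9 arrays (limma 3.58.1, R 4.3.3). The median absolute difference from the authors' log2 values was 0.03. A probe was tested if every array of some group had it above background and no array lacked a value. RefSeq accessions gave 16968 probes a gene name in GRCr8. Of several probes the brightest that passed was used. Named are the 10 members, pathway genes with a probe called at least once, markers above background on no array, and the 5 genes most like Arntl and Nr1d1; 2 markers were added after their values were seen. Some genes of the lists are not reported here and entered no count of a list. Groups were compared by lmFit and eBayes with Benjamini-Hochberg adjustment, and by the moderated F-test. The fit was checked on simulated data. The 3 rats per group are separate animals, and their number limits the precision: the smallest exact two-sided permutation p is 0.1. Rats with the same number were not treated as pairs. The methods name a t-test without its form, so equal and unequal variances were both run, the second added after the data were seen. Other alternatives are given with their effect in the closing section.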

Additional observations from a re-analysis of the deposited data

Results flagged for a closer look

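Per2 was singled out because the irradiated rats with and without HSC differed by a direct test: HSC + TBI was 1.08 log2 units above TBI (95% interval 0.68 to 1.47, limma adjusted p = 0.0412, all 3 HSC + TBI rats above all 3 TBI rats). The call was lost without control 1, 2 or 3, TBI 2, HSC + TBI 1 or HSC + TBI 2, with a difference of 0.97 to 1.26 over all 9 fits with 1 rat left out. With no group given HSC alone, a difference in the response to TBI was not tested.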

How the results depend on the processing

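The number of the 10 clock genes called was 7 for TBI against control, 2 for HSC + TBI against control and 1 for HSC + TBI against TBI, and 5 differed among the 3 groups. The authors' normalized values and keeping outlier spots gave these same numbers, and a 75th percentile shift gave 6, 2, 1 and 5. Normexp background correction gave 3, 0 and 0 in the 3 comparisons, and 5 still differed among the 3 groups. Without a filter on dim probes they were 4, 0 and 0, with 3 differing among groups and 1 pathway gene called for HSC + TBI against control. When every array had to show the probe above background, HSC + TBI against TBI gave 0, and with only the compared groups in the fit TBI against control gave 3 and HSC + TBI against TBI 0. The slide as a random block, whose correlation was -0.33, gave 4 for HSC + TBI against TBI and 9 differing among groups, and 7 and 5 pathway genes for HSC + TBI against control and against TBI, but it also called 10.2% and 8.91% of all probes in these comparisons and 48.8% by the F-test. The cause of these changes was not tested.

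The replicate number as a block gave 5, 2 and 0, with 4 differing among groups and 1 pathway gene for HSC + TBI against control. The labels do not say whether same-numbered rats were paired. Between control and TBI, deviations of same-numbered rats correlated at 0.19, 0.12 and 0.10, above all differently numbered pairs (-0.12 to 0.02). Between TBI and HSC + TBI they correlated at -0.14, -0.02 and -0.03, where differently numbered pairs gave -0.09 to 0.14. Between control and HSC + TBI they gave 0.0009, 0.01 and 0.01, where the others gave -0.05 to 0.04. The cause of the values between control and TBI was not tested.

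The methods' t-test is named without its form. Over 8 forms (equal or unequal variances, log2 or linear signals, fold of linear or log2 means) it called 1868 to 2571 probes for TBI against control at an unadjusted p. The equal and the unequal form on log2 signals both called 7 clock genes for TBI against control, 3 for HSC + TBI against control and 4 for HSC + TBI against TBI at an unadjusted p, where the equal form called 10.1%, 8.12% and 5.37% of all probes and the unequal form 8.37%, 6.68% and 3.68%. Of the pathway genes they called 7 for HSC + TBI against control, and 3 (equal) or 2 (unequal) for HSC + TBI against TBI. After Benjamini-Hochberg adjustment both called 0 clock genes in every comparison, the equal form 1 pathway gene for TBI against control and the unequal form 0, both 0 for HSC + TBI against control, and the analysis of variance left 2 clock genes.

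Leaving out 1 rat at a time gave 2 to 5, 0 to 2 and 0 to 1 called clock genes, 2 to 5 differing among groups, and 4 to 6, 0 to 3 and 0 to 0 pathway genes in the same order. Only differences that were not called changed sign: Clock between HSC + TBI and TBI (0.040 with normexp, and -0.10 to 0.12 with 1 rat left out), Npas2 and Per3 between HSC + TBI and control (-0.26 to 0.30 and -0.34 to 0.0054 with 1 rat left out) and Per1 between TBI and control (-0.11 to 0.34 with 1 rat left out). The Clock probe was not above background on every array, which limits its value.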
